A study of Homo sapiens with 6 samples.

Results

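Genes of the mitotic spindle and kinetochore were followed in NCI-H1299 cells, a human lung cancer line, with and without overexpression of MTSS1, a membrane-binding scaffold protein of the actin cytoskeleton. The set held 50 named genes for mitotic kinases, the spindle checkpoint, centromere and kinetochore proteins, kinesin motors, spindle assembly factors, cytokinesis and chromosome separation. They were taken by symbol from a table of 64253 gene identifiers, and all 50 were among the 16091 genes with enough reads to be tested. The MTSS1 overexpressing group had 3 libraries (titled MT03, MT10 and MT13, here replicates 1 to 3) from cells carrying an mCherry-tagged MTSS1 plasmid that had been put under hygromycin and sorted. The wild type group had 3 libraries of the unmodified line (MT02, MT09 and MT12, here replicates 1 to 3). No library of cells with a control plasmid was analysed here, so effects of MTSS1, of the plasmid, of the drug and of the sort cannot be told apart. The labels do not say whether the sorted cells were 1 clone, and nothing says that the replicates were separate cultures. The p-values below therefore rest on the spread among these 6 libraries, which may be technical. No dose or time was given for either group.

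In mitosis the duplicated chromosomes attach to a bipolar spindle of microtubules through kinetochores, protein assemblies built on the centromere. Kinases of the Aurora, Polo and CDK families drive entry and correct faulty attachments, and the spindle checkpoint holds back the anaphase-promoting complex until every kinetochore is attached. Motor proteins shape the spindle, and a contractile ring then divides the cell. In dividing cells most of these genes are transcribed together late in the cycle, in G2 and M, and are kept low earlier by repressor complexes that bind the CHR element of their promoters. Their summed RNA is widely used as a measure of how many cells of a population are dividing.

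The RNA of these genes differed little between the groups. AURKB, the Aurora kinase that corrects attachments at the centromere, was the single member to pass the test in edgeR's quasi-likelihood test adjusted over all tested genes. It was higher in MTSS1 overexpressing cells, and 0 members were lower, against 1.82% of all tested genes called higher and 2.45% called lower. In a fit that takes neighbouring library titles as pairs (a block, described below), 15 members were called higher and 5 lower, against 10.7% and 12% of all tested genes. At an unadjusted p under 0.05 there were 13 members (19.8% of all tested genes), 10 higher (9.15% of all) and 3 lower (10.7% of all). DESeq2 called 1 member higher (AURKB) and 1 lower (NUF2), against 3.24% and 4.1% of the genes it tested. Values are given in CPM (counts relative to the library's total, scaled between libraries with TMM), and a log2 fold change is that of MTSS1 overexpressing over wild type cells. The median log2 fold change of the 50 genes was 0.09 (0.00 over all tested genes), and 34 of the 50 lay within 0.2 of 0 in either direction. The range ran from -0.47 to 0.57. A different share of dividing cells and a different amount of RNA per cell cannot be told apart in such bulk libraries.

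The summed level of the 50 genes was 9644, 9758 and 10178 CPM in MTSS1 overexpressing replicates 1 to 3, against 9409, 8285 and 10119 CPM in wild type replicates 1 to 3. The means were 9860 ± 282 CPM in MTSS1 overexpressing and 9271 ± 925 CPM in wild type cells (SD, n = 3 each). The groups overlapped, and wild type replicate 2 lay apart at the low end. That library had the lowest value of all 6 for 36 of the 50 genes and the lowest of the wild type libraries for 44. Without it the members' median log2 fold change was 0.00, and without wild type replicate 3 it was 0.14. Its total of 29479453 counts was the highest of the 6.

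**Figure D1:**
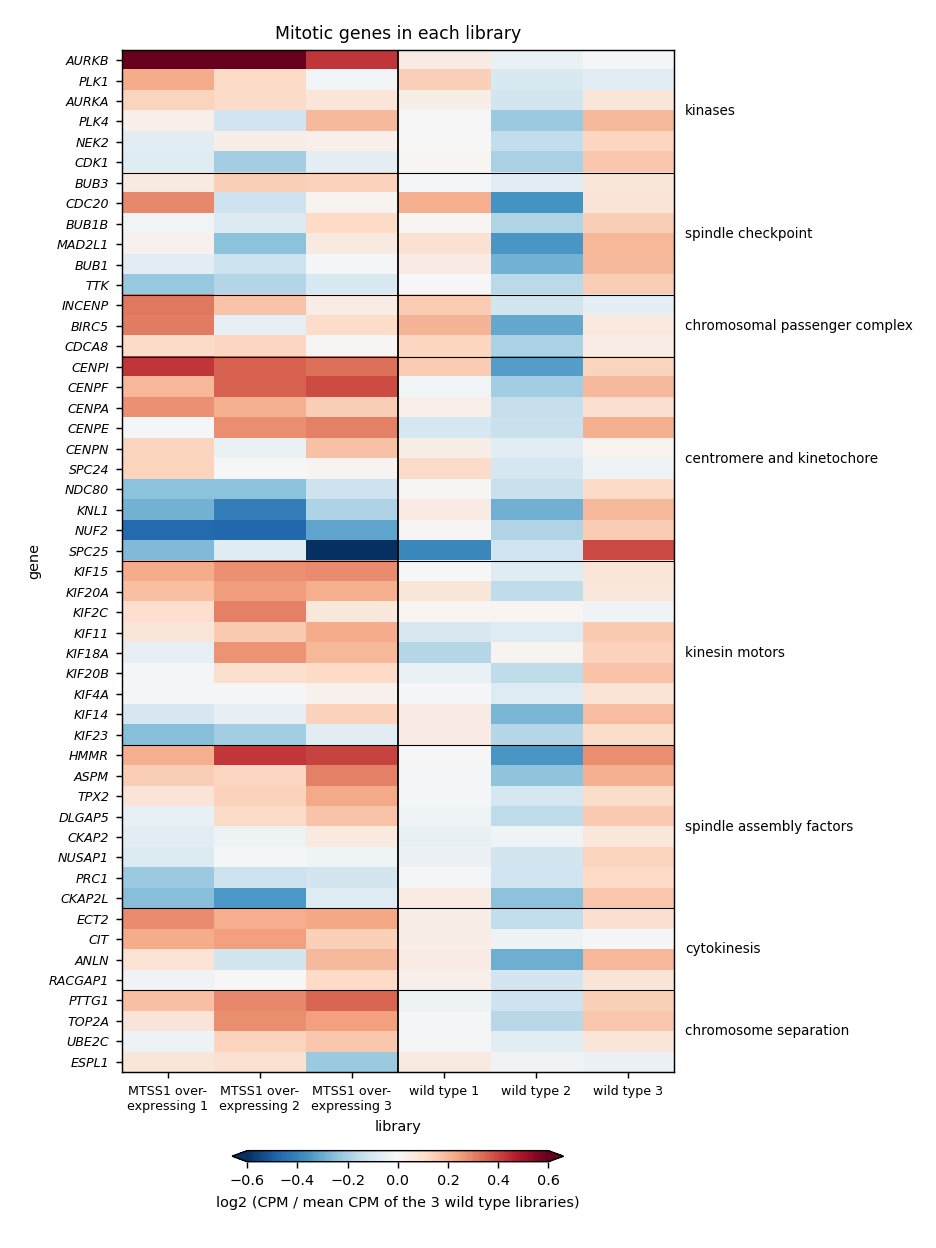
Level of each of the 50 genes (rows, grouped by role and ordered by fold change) in each library (columns, MTSS1 overexpressing left, wild type right), as log2 of CPM over the mean of the 3 wild type libraries. Wild type replicate 2 is below 0 (blue) in most rows, with a median of -0.14, against 0.01 and 0.13 in wild type replicates 1 and 3 and 0.06, 0.09 and 0.12 in the MTSS1 overexpressing libraries.

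The check of the labels was clear, since MTSS1 had 550, 544 and 568 CPM in MTSS1 overexpressing libraries against 24.2, 18.0 and 24.3 CPM in wild type libraries. Total counts ran from 13883380 to 25741708 in MTSS1 overexpressing and from 19018751 to 29479453 in wild type libraries. The first principal component set both replicates 1 apart from the other 4 libraries. Of the markers of the labelled cell type, the lung lineage genes NKX2-1 (2.35 to 2.92 CPM in MTSS1 overexpressing, 0.628 to 1.59 CPM in wild type) and NAPSA (at most 0.529 CPM) were near 0 and SFTPB was at 0 in all 6 libraries, while the mesenchymal gene VIM stood at 4574 to 4807 CPM in MTSS1 overexpressing and 4260 to 4474 CPM in wild type libraries. Of the other mesenchymal genes read, ZEB1 overlapped between the groups, and FN1, fibronectin, rose (48.2 to 62.5 CPM in MTSS1 overexpressing against 33.0 to 39.7 CPM in wild type libraries, adjusted p = 0.038 from edgeR, 0.054 to 0.14 with 1 library left out). The leukocyte list (PTPRC, CD3E and LYZ) summed to 0.0734 to 2.61 CPM in MTSS1 overexpressing and 0.318 to 2.18 CPM in wild type libraries. The erythroid list (HBB and HBA1) stayed under 0.7 CPM in every library. The epithelial list summed to 256 to 468 CPM in MTSS1 overexpressing against 570 to 851 CPM in wild type libraries, through KRT8 and KRT18. The edgeR adjusted p was 0.011 for KRT8 and 0.061 for KRT18. With 1 library left out it ran from 0.0054 to 0.055 for KRT8 and from 0.017 to 0.18 for KRT18. The other genes of the epithelial list did not fall. KRT7 had 1.40 to 2.00 CPM in MTSS1 overexpressing against 0.563 to 1.11 CPM in wild type libraries. EPCAM had 0.807 to 0.955 CPM against 0.397 to 0.638 CPM, and CDH1 did not exceed 0.160 CPM. The part of FN1 and the keratins in the results on mitotic genes was not tested. A kidney and neuronal list was read because the protocol mentions HEK293T cells. It summed to 179 to 192 CPM in MTSS1 overexpressing and 144 to 197 CPM in wild type libraries, nearly all of it INA, while PAX2 did not exceed 0.165 CPM.

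The promoters of the set are shown first because the genes are known to share a promoter element and because its presence can be set beside the direction of each gene. RefSeq windows on GRCh38.p14, from 250 bases before to 50 bases from the transcription start on, were matched by symbol for 42 of the 50 genes and for 27305 genes in all. AURKA, BIRC5, BUB3, KNL1, RACGAP1, TPX2, TTK and UBE2C had no window. The CHR letters TTTGAA or TTCGAA, on either strand, stood in 33 of the 42 windows (78.6%) against 19.5% of all genes with a window. TTCGAA reads the same on both strands. From 30 bases before the start to the end of the window, a span chosen after the matches were seen, 26 of 42 genes (61.9%) held them against 4.96% of all genes. CCAAT, the letters of the NF-Y box, stood in 33 of 42 whole windows (78.6%) against 39.7% of all genes. Between 100 and 31 bases before the start it stood in 27 of 42 genes (64.3%) against 18.4% of all genes. This narrower span was not part of the planned search. These are matches of letters, not sites shown to be bound. The stretches below run 5′ to 3′ along each gene's strand, from 70 bases before the start to 30 bases from it, with the CHR letters and CCAAT in capitals on whichever strand they lie (from the other strand the CHR form TTTGAA reads TTCAAA and the NF-Y box reads ATTGG). Of the genes shown, AURKB, PTTG1, PLK1, CENPA and KIF18A were higher in all 3 neighbouring title pairs, NUF2, NDC80 and PRC1 were lower in all 3, and BUB1 was mixed. AURKB and PTTG1 show no CHR letters here. The window shown for AURKB lies inside the annotated gene, which on the minus strand begins at 8210600. Its stretch therefore does not show whether AURKB has the letters before that base. The windows shown for PLK1, CENPA, PRC1 and NUF2 also lie inside the annotated genes. The stretch shown for KIF18A lies inside its annotated gene too, while its whole window reaches past the annotated start. The 7 genes other than AURKB and PTTG1 show the CHR letters close to the start, whichever their direction.
AURKB: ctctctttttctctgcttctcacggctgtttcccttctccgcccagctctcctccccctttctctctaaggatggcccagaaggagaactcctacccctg
PTTG1: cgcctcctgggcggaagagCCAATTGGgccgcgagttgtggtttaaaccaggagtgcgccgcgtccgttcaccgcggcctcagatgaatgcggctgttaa
PLK1: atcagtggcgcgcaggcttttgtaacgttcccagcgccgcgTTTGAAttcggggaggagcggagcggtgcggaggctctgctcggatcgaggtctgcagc
CENPA: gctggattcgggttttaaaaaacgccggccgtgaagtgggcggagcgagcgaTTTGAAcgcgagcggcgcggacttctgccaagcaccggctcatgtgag
PRC1: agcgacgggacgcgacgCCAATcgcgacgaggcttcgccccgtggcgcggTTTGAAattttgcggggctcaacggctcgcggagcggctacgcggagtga
KIF18A: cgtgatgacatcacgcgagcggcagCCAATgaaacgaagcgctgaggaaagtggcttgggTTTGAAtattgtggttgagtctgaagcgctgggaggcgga
BUB1: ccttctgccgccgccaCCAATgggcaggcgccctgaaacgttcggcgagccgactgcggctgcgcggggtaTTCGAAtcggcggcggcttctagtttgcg
NUF2: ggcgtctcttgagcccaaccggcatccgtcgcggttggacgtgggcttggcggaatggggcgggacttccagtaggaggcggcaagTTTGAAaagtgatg
NDC80: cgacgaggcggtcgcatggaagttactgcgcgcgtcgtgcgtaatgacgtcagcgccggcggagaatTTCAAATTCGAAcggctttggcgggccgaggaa
These stretches are AURKB at chr17:8210196-8210295 on the minus strand, PTTG1 at chr5:160421785-160421884 on the plus strand, PLK1 at chr16:23678819-23678918 on the plus strand, CENPA at chr2:26785986-26786085 on the plus strand, PRC1 at chr15:90994506-90994605 on the minus strand, KIF18A at chr11:28108127-28108226 on the minus strand, BUB1 at chr2:110678034-110678133 on the minus strand, NUF2 at chr1:163321884-163321983 on the plus strand and NDC80 at chr18:2571487-2571586 on the plus strand. In NDC80 the 2 forms lie end to end.

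**Figure D2:**
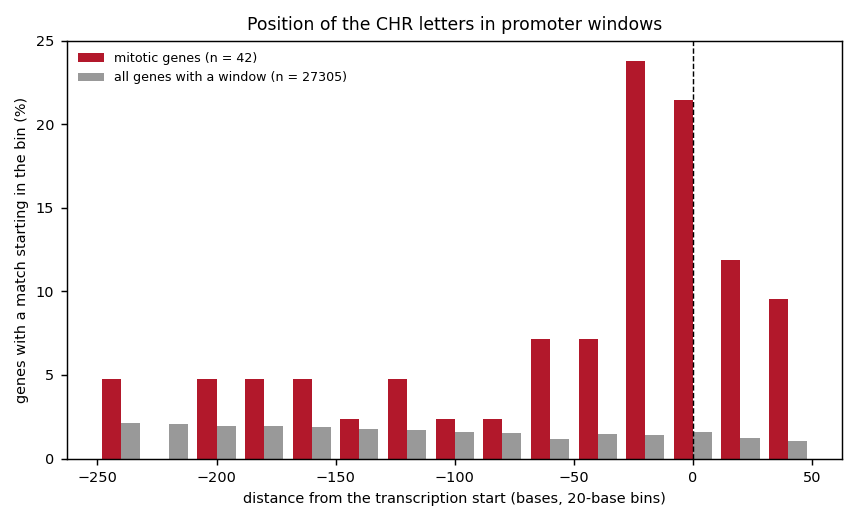
Share of genes (y axis, percent) with TTTGAA or TTCGAA starting in each 20-base bin of the promoter window (x axis, distance from the transcription start in bases), for the 42 mitotic genes with a window (red) and all 27305 genes with a window (grey). The bin from 30 to 10 bases before the start holds 23.8% of the mitotic genes and 1.39% of all genes, and the next bin 21.4% and 1.56%.

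Genes with and without the letters near the start were found in both directions. The 26 genes with a match near the start had a median log2 fold change of 0.07, with 17 of 26 above 0. The 16 genes with a window and no match near the start had a median of 0.18, with 13 of 16 above 0. AURKB is among these 16, and its window shown above lies inside the annotated gene. No test was made of this difference, and the line between the classes was drawn after the matches were seen.

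Among the 6 kinases AURKB rose and the others did not pass the test without the block or with the block alone. AURKA was called higher with the block and the neighbours' median subtracted together (below). AURKB (ENSG00000178999, chromosome 17, 8204733 to 8210600, GRCh38) had 105, 104 and 90.8 CPM in MTSS1 overexpressing libraries, against 69.7, 65.6 and 67.0 CPM in wild type libraries. The groups did not overlap, and the lowest MTSS1 overexpressing library lay above the highest wild type library. The means of 100.2 ± 8.12 and 67.5 ± 2.1 CPM (SD, n = 3 each) gave a 1.48-fold difference (0.57 ± 0.09 SE on the log2 scale; adjusted p = 0.0098 from edgeR), higher in 3 of 3 neighbouring pairs. AURKB no longer passed when wild type replicate 3 was left out (adjusted p = 0.057 from edgeR), without both replicates 1 (0.083) or without both replicates 2 (0.10). The call was also lost once the median of the 50 nearest genes was subtracted (0.28 on the log2 scale, adjusted p = 0.15 from edgeR). Its neighbours on chromosome 17 had a median of 0.29.

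AURKA, the Aurora kinase of the spindle poles, had 196, 194 and 188 CPM in MTSS1 overexpressing libraries and 183, 165 and 188 CPM in wild type libraries. PLK1, the Polo kinase of mitotic entry and spindle assembly, had 218, 202 and 184 CPM in MTSS1 overexpressing and 206, 175 and 179 CPM in wild type libraries. AURKA was narrowly apart between the groups and PLK1 overlapped. Each had an estimate of 0.11 on the log2 scale (adjusted p from edgeR 0.52 for AURKA and 0.60 for PLK1). PLK4, which starts centriole duplication, CDK1, the kinase of mitotic entry, and NEK2, a centrosome kinase, had log2 fold changes of 0.04, -0.11 and 0.00. The SE of these 5 genes lay between 0.08 and 0.12 on the log2 scale.

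The 6 genes of the spindle checkpoint and its target were the group with the lowest median, -0.02. Of these 0 of 6 passed the test in either direction, also with the pairs alone as a block (below). BUB1B was called higher with the block and the neighbours' median subtracted together (below). BUB1, the checkpoint kinase at kinetochores, had 314, 302 and 327 CPM in MTSS1 overexpressing libraries and 341, 270 and 377 CPM in wild type libraries. CDC20, the activator of the anaphase-promoting complex that the checkpoint inhibits, had 272, 204 and 226 CPM in MTSS1 overexpressing and 259, 174 and 235 CPM in wild type libraries. For BUB1 the wild type values lay on both sides of the MTSS1 overexpressing ones, and for CDC20 the groups overlapped, with wild type replicate 2 lowest. TTK, the kinase that starts checkpoint signalling, had the lowest log2 fold change of the group (-0.16, SE 0.09, adjusted p = 0.39 from edgeR) and BUB3, which carries BUB1 to kinetochores, the highest (0.11). BUB1B, which blocks CDC20, stood at 0.01, and MAD2L1, its partner in the inhibitory complex, at -0.05. CDC20 counts may share reads with its processed copy CDC20P1, which was listed with 1409 counts in MTSS1 overexpressing and 1620 counts in wild type libraries, 9.74% of the CDC20 count.

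The chromosomal passenger complex carries Aurora B to the centromere, and its 3 other subunits had a median of 0.13 with 0 of 3 called (1 higher with the block). BIRC5, survivin, had 185, 144 and 161 CPM in MTSS1 overexpressing and 172, 120 and 155 CPM in wild type libraries. CDCA8, borealin, had 131, 132 and 122 CPM in MTSS1 overexpressing and 132, 106 and 125 CPM in wild type libraries. Both overlapped between the groups, in contrast to the non-overlapping values of AURKB, whose protein binds them. The scaffold INCENP stood at 0.18 on the log2 scale (SE 0.10, adjusted p = 0.38 from edgeR). Whether AURKB differed from its partners was not tested.

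**Figure D3:**
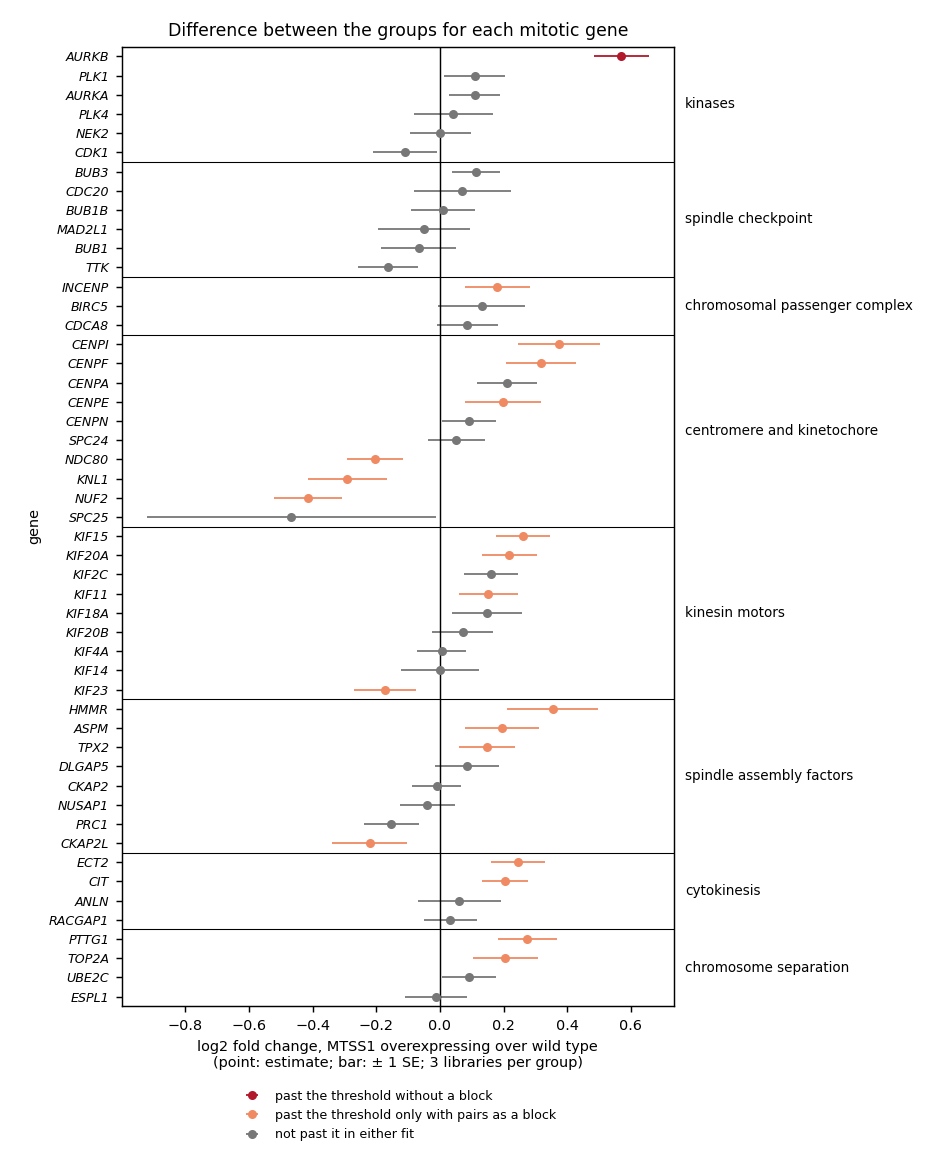
Log2 fold change of each of the 50 genes (x axis, MTSS1 overexpressing over wild type; point, edgeR estimate; bar, ± 1 SE; 3 libraries per group), grouped by role. AURKB at 0.57 is the member past the threshold without a block, and orange points pass with the neighbouring pairs as a block.

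Centromere and kinetochore genes went both ways, and this was the group with the widest spread, though 0 of 10 passed the test without the block. With it, 3 were higher and 3 lower. CENPF, a large kinetochore and nuclear matrix protein, had 494, 550 and 566 CPM in MTSS1 overexpressing against 426, 373 and 493 CPM in wild type libraries. CENPI, a subunit of the constitutive centromere network, had 65.7, 62.4 and 61.3 CPM in MTSS1 overexpressing against 54.1, 38.7 and 53.5 CPM in wild type libraries. CENPE, the kinesin that brings chromosomes to the spindle equator, had 195, 239 and 243 CPM in MTSS1 overexpressing and 183, 179 and 228 CPM in wild type libraries. For CENPF and CENPI every MTSS1 overexpressing library lay above every wild type library, and CENPE overlapped. The log2 fold changes were 0.32 for CENPF, 0.37 for CENPI and 0.20 for CENPE (edgeR adjusted p = 0.15, 0.14 and 0.42).

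The outer kinetochore, which grips microtubules through the NDC80 complex and its anchor KNL1, held the genes called lower with the block in this role. NUF2 (ENSG00000143228, chromosome 1, 163266576 to 163355764), a subunit of the NDC80 complex, had 42.7, 42.5 and 47.3 CPM in MTSS1 overexpressing against 59.2, 52.1 and 65.6 CPM in wild type libraries. KNL1, the scaffold that binds checkpoint proteins, had 187, 171 and 200 CPM in MTSS1 overexpressing against 236, 187 and 261 CPM in wild type libraries. NDC80, which binds the microtubule, had 149, 149 and 162 CPM in MTSS1 overexpressing against 177, 161 and 191 CPM in wild type libraries. NUF2 was the single member whose groups did not overlap with MTSS1 overexpressing lower. KNL1 and NDC80 overlapped by the low wild type replicate 2. NUF2 stood at -0.42 on the log2 scale (SE 0.11) and missed the threshold at an edgeR adjusted p of 0.062, while DESeq2 gave an adjusted p of 0.020. KNL1 stood at -0.29 and NDC80 at -0.20, each with an edgeR adjusted p of 0.23. The stretches of NUF2 and NDC80 above both hold CHR letters, as do those of genes that were not lower.

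The other subunits of the NDC80 complex added little. SPC24 did not share the direction, with a log2 fold change of 0.05 (SE 0.09). SPC25 was listed at 0.808, 0.922 and 0.400 CPM in MTSS1 overexpressing and 0.742, 0.893 and 1.28 CPM in wild type libraries, 120 counts over all 6 libraries, against at least 7223 for every other member. Other broadly expressed genes, RPS9, B2M, RPS18 and TUBB, were also listed near 0, so that the level of SPC25 is a listed value, and its log2 fold change of -0.47 has an SE of 0.45. CENPA, the centromeric histone, and CENPN, which reads it, stood at 0.21 and 0.09.

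Of the 9 kinesins 0 passed the test (3 higher and 1 lower with the block) and 8 had log2 fold changes above 0, against 50.6% of all tested genes. KIF15, a motor that holds the spindle bipolar, had 54.9, 57.0 and 57.4 CPM in MTSS1 overexpressing against 47.0, 44.8 and 49.6 CPM in wild type libraries. KIF20A, a motor of the central spindle in cytokinesis, had 224, 236 and 231 CPM in MTSS1 overexpressing against 208, 178 and 207 CPM in wild type libraries. KIF11, which pushes the spindle poles apart, had 225, 239 and 250 CPM in MTSS1 overexpressing and 200, 203 and 239 CPM in wild type libraries. KIF15 and KIF20A did not overlap and KIF11 did. Their log2 fold changes were 0.26, 0.22 and 0.15 (edgeR adjusted p = 0.12, 0.19 and 0.42). KIF2C, a microtubule depolymerase, stood at 0.16, KIF18A, which limits chromosome movement, at 0.15, and KIF20B, KIF4A and KIF14 between 0.00 and 0.07. KIF23, the motor subunit of centralspindlin, was the exception at -0.17 (SE 0.10, edgeR adjusted p = 0.38), while RACGAP1, its partner in that complex, stood at 0.03. The gene copy KIF4B was listed with 624 counts in MTSS1 overexpressing and 763 counts in wild type libraries, 5.62% of the KIF4A count.

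Spindle assembly factors were split, 4 above 0 and 4 below, with 0 of 8 called (3 higher and 1 lower with the block). TPX2, the activator of Aurora A on the spindle, had 801, 836 and 890 CPM in MTSS1 overexpressing and 755, 706 and 819 CPM in wild type libraries. Per kilobase of exon it had the highest level of the 50 genes, 234 CPM in MTSS1 overexpressing and 211 CPM in wild type cells. HMMR, a microtubule and hyaluronan binding protein, had 241, 278 and 274 CPM in MTSS1 overexpressing against 207, 162 and 251 CPM in wild type libraries. ASPM, which focuses the spindle poles, had 295, 291 and 328 CPM in MTSS1 overexpressing and 265, 225 and 309 CPM in wild type libraries. The 3 genes overlapped, HMMR and ASPM with a wide gap at wild type replicate 2, and had log2 fold changes of 0.15, 0.35 and 0.19 (edgeR adjusted p = 0.40, 0.21 and 0.41). CKAP2L stood at -0.22, PRC1, the bundler of the central spindle, at -0.15, and NUSAP1 at -0.04. Over 50% of the exon bases of both PRC1 (58.4%) and NUSAP1 (62.2%) also belong to another annotated gene, and whether reads were counted by strand is not given in the sources used here. Their counts are therefore uncertain.

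Among 4 cytokinesis and 4 chromosome separation genes 0 passed the test (2 of each 4 were higher with the block), and 7 of these 8 had log2 fold changes above 0. ECT2, the exchange factor that switches on RhoA at the cell equator, had 386, 369 and 373 CPM in MTSS1 overexpressing against 326, 287 and 340 CPM in wild type libraries. ANLN, anillin, which links the contractile ring to the membrane, had 610, 534 and 659 CPM in MTSS1 overexpressing and 596, 471 and 661 CPM in wild type libraries. ECT2 did not overlap (0.24 on the log2 scale, SE 0.09, adjusted p = 0.15 from edgeR), and ANLN overlapped throughout (0.06). The citron kinase gene CIT, of the midbody, also did not overlap, at 0.20 (SE 0.07, edgeR adjusted p = 0.16). PTTG1, securin, which restrains separase, had 189, 203 and 213 CPM in MTSS1 overexpressing against 164, 153 and 184 CPM in wild type libraries. TOP2A, the topoisomerase that untangles sister chromatids, had 519, 598 and 584 CPM in MTSS1 overexpressing and 488, 438 and 550 CPM in wild type libraries. PTTG1 did not overlap (0.27, SE 0.09, edgeR adjusted p = 0.13) and TOP2A did (0.21, edgeR adjusted p = 0.31). ESPL1, separase itself, stood at -0.01, and UBE2C, the ubiquitin-conjugating enzyme of the anaphase-promoting complex, at 0.09. The gene copy PTTG3P was listed with 230 counts in MTSS1 overexpressing and 182 counts in wild type libraries, 1.60% of the PTTG1 count. In all, 11 of the 50 genes did not overlap with MTSS1 overexpressing higher and 1 with it lower, against 12.1% and 13.5% of all tested genes.

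The 3 neighbouring title pairs did not give the same picture. The median log2 ratio of the 50 genes was 0.05 for MT03 over MT02, 0.22 for MT10 over MT09 and 0.03 for MT13 over MT12, with 31, 41 and 27 genes above 0. Over all tested genes the medians were 0.01, 0.00 and -0.00. In 47 of the 50 genes the pair of replicates 2, the one with the low wild type library, had the highest ratio. Across the pairs, 24 genes were higher in all 3 and 9 were lower in all 3, against 26.8% and 26.7% of all tested genes. HMMR stood at 0.21, 0.77 and 0.13 in the 3 pairs, CENPF at 0.21, 0.56 and 0.20 and CENPI at 0.28, 0.69 and 0.20, whereas AURKB stood at 0.60, 0.67 and 0.44. NUF2 stood at -0.47, -0.29 and -0.47. Leaving out both replicates 2 brought the median of the 50 genes from the fit to 0.02, and 0 members passed.

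**Figure D4:**
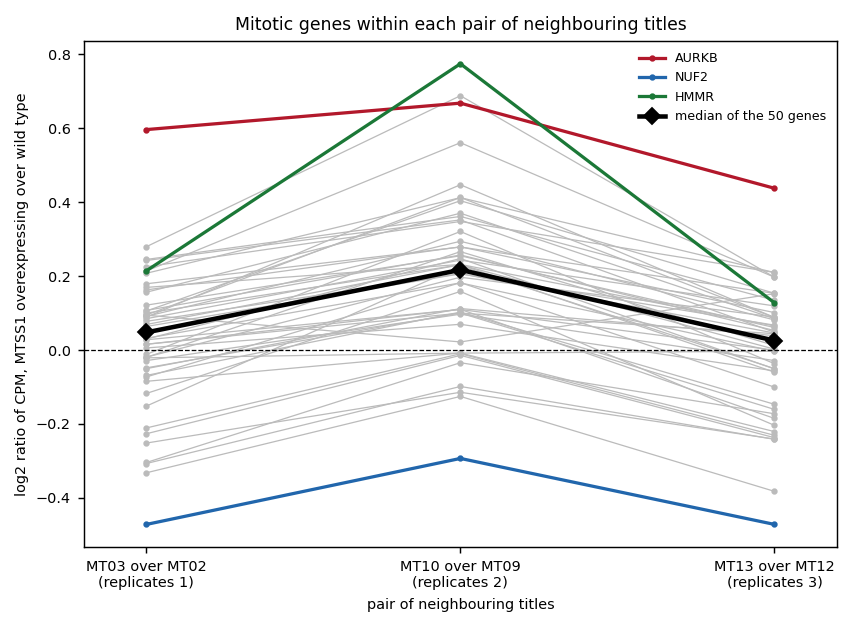
Log2 ratio of CPM, MTSS1 overexpressing over wild type (y axis), within each of the 3 neighbouring title pairs (x axis), for 49 of the 50 genes (grey lines), with AURKB, NUF2 and HMMR in colour. SPC25, at -1.67 in the pair of replicates 3, is not drawn. The black line is the median of all 50 genes. The median is 0.05, 0.22 and 0.03, and nearly every line peaks at the pair of replicates 2.

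The labels do not say that neighbouring titles share a day or a batch, but deviations from the group means correlated at 0.66, 0.34 and 0.38 within these pairs across genes. With the pairs as a block in the fit, 15 of the 50 genes were called higher and 5 lower. Those called higher were AURKB (edgeR adjusted p = 1.1e-04), PTTG1 (0.0040), CENPF (0.0049), ECT2 (0.0054), CENPI (0.0086), KIF15 (0.012), CIT (0.013), HMMR (0.018), KIF20A (0.020), ASPM, TPX2, INCENP, TOP2A, KIF11 and CENPE. The 5 called lower were NUF2 (0.0012), KNL1 (0.0048), NDC80 (0.014), CKAP2L (0.015) and KIF23 (0.049). The fold changes themselves stayed small: apart from AURKB and NUF2, no member in this list had an estimate beyond 0.4 in either direction in the fit with the block.

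Several of these genes had the direction of the genes that surround them on the chromosome. For each gene the median log2 fold change of its 50 nearest tested genes was taken. Over the 50 members it correlated with the gene's own log2 fold change (Spearman's rho 0.53, Pearson's r 0.67, across genes that are not independent and all come from the same 6 libraries), and over all tested genes Spearman's rho was 0.34. Of the 11 members whose neighbours had a median below -0.15, a line drawn after the values were seen, 9 were below 0. Of the other 39, 5 were. NUF2 at -0.42 lay among neighbours at -0.38, KNL1 at -0.29 and NDC80 at -0.20 both among neighbours at -0.22, KIF23 at -0.17 among neighbours at -0.28, and CENPI at 0.37 among neighbours at 0.37. Chromosome 15, where the median of 509 tested genes was -0.28, carries 5 of the 50, and 4 of these were below 0. CENPF, HMMR, PTTG1 and KIF15 lay among neighbours between 0.04 and 0.06.

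With the neighbours' median subtracted, NUF2 stood at -0.03, CENPI at -0.00, KNL1 at -0.07 and NDC80 at 0.01, and 0 of the 50 genes passed the test, against 2.18% of all tested genes with neighbours. With the offset and the pairs as a block together, 16 genes were called higher and 0 lower, against 7.33% and 8.59%. Of the 15 called higher with the block alone, 9 were among these 16, and of the 5 called lower with the block alone 0 were called. The 9 were AURKB, CENPF, ECT2, HMMR, INCENP, KIF15, KIF20A, PTTG1 and TPX2. The rest of the 16 were AURKA, BUB1B, CENPA, KIF2C, KIF4A, NUSAP1 and PRC1. NUSAP1 and PRC1, below 0 without the offset, stood at 0.21 and 0.19. The low wild type replicate 2 is part of each of these fits. The neighbours' median came from the same 6 libraries, in the fit without the block. It entered as a known value, so its own error is not in these p-values.

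**Figure D5:**
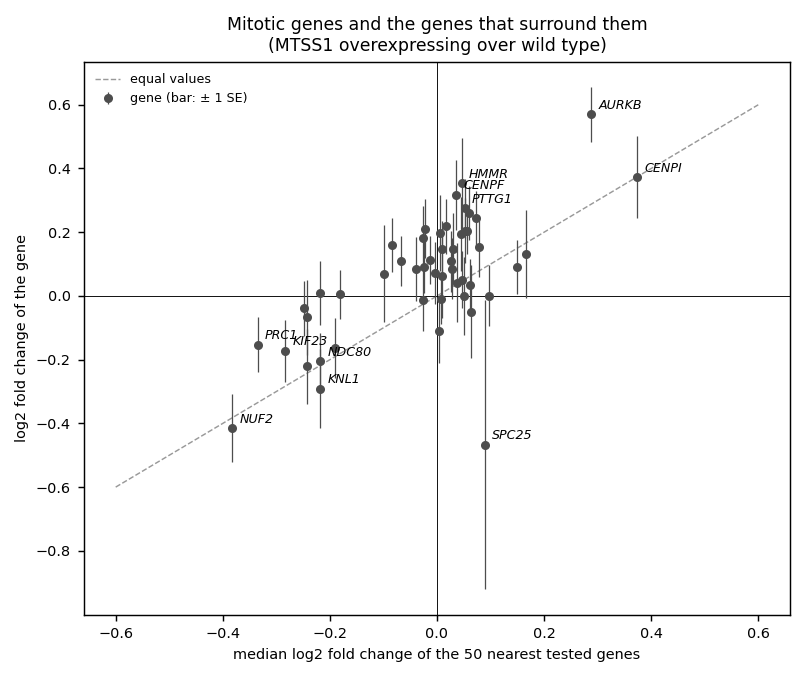
Log2 fold change of each of the 50 genes (y axis, MTSS1 overexpressing over wild type; bar, ± 1 SE) against the median log2 fold change of its 50 nearest tested genes (x axis); the dashed line marks equal values. NUF2 and CENPI lie on the line at -0.42 and 0.37, AURKB lies above it, and SPC25 has by far the longest bar.

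Beyond the 50, a list of 161 other genes of the mitotic pathway was read, of which 159 were tested (SKA1 and KIFC1 had too few reads). Their median log2 fold change was 0.05, and 2 of the 159 were higher, 1 was lower and 156 did not pass, beside the 1.82% higher and 2.45% lower of all tested genes. With the pairs as a block 26 were higher and 12 lower, beside 10.7% and 12% of all tested genes. NCAPG2, a subunit of condensin, which compacts chromosomes, had 177, 163 and 185 CPM in MTSS1 overexpressing against 134, 124 and 137 CPM in wild type libraries (0.41 on the log2 scale, SE 0.08, adjusted p = 0.027 from edgeR). MASTL, the Greatwall kinase that keeps mitotic phosphorylation high, had 64.3, 61.3 and 72.4 CPM in MTSS1 overexpressing against 50.0, 46.2 and 51.1 CPM in wild type libraries (0.43, SE 0.09, edgeR adjusted p = 0.038). The groups did not overlap in either gene, but the calls were not stable. With 1 library left out, the edgeR adjusted p ran from 0.048 to 0.097 for NCAPG2 and from 0.067 to 0.12 for MASTL, and with the neighbour offset neither passed.

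CDKN1A, the CDK inhibitor p21, fell. It had 29.7, 26.6 and 26.9 CPM in MTSS1 overexpressing against 53.6, 48.3 and 45.6 CPM in wild type libraries (-0.83 on the log2 scale, SE 0.10, adjusted p = 0.0044 from edgeR), with no overlap. It passed in each fit that left out 1 library, where the highest edgeR adjusted p was 0.028, and with the neighbour offset (0.0091), but not when both replicates 2 were left out.

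In the 7 lists that make up the 161, the genes with the smallest p mostly missed the threshold. These were ANAPC5 (0.30) and ANAPC4 (-0.21) of the anaphase-promoting complex, ZWILCH (-0.28) and OIP5 (-0.38) of the kinetochore and centromere, STAG2 (-0.28) of cohesin, HAUS7 (1.22) and HAUS2 (-0.23) of the augmin complex, CLASP1 (-0.23) and KPNA2 (0.33) among spindle genes, ARPP19 (-0.28), a phosphatase inhibitor, and E2F2 (0.49), a cell cycle transcription factor. ZWILCH, OIP5, HAUS2 and ARPP19 lie on chromosome 15, where the median of 509 tested genes was -0.28. The proliferation marker MKI67 had 901, 847 and 958 CPM in MTSS1 overexpressing and 803, 596 and 832 CPM in wild type libraries, and the mitotic transcription factor FOXM1 had 488, 442 and 472 CPM in MTSS1 overexpressing and 445, 308 and 425 CPM in wild type libraries. Both were lowest in wild type replicate 2, the library in which most of the 50 genes were lowest. Neither passed the test without the block.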

How the data were processed

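Poly(A) RNA of 6 libraries was sequenced as single reads, per the labels' protocols. The table the authors deposited holds raw counts, whole numbers of reads for each Ensembl identifier. Per the submitters' processing notes, bcl2fastq, HISAT2 2.1.0, HTSeq and the GRCh38 build were used. Neither the annotation release nor a strand option of HTSeq is given in the sources used here. Symbols were matched for 56591 of 64253 identifiers, 486 of them through GENCODE 29, which also gave coordinates and exon lengths.

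The test on these counts was that of edgeR 4.0.16, run in R 4.3.3 (TMM scaling, filterByExpr, quasi-likelihood test, two-sided, Benjamini-Hochberg adjustment over 16091 genes, threshold 0.05) without a block, because the labels give no shared replicate numbers. The fit was also run on simulated counts with known changes. These held no shift shared by neighbouring genes and no outlying library, and no result here rests on them. The biological coefficient of variation was 0.162. Alternatives were DESeq2 1.42.0, its size factors in edgeR, no filter, a filter of 1 CPM in 3 libraries, each library left out, neighbouring title pairs as a block, and the median of the 50 nearest tested genes subtracted. Between libraries of different pairs, correlations of deviations lay between -0.40 and 0.10. Leaving out both replicates of a pair, and joining block and neighbour offset, were chosen after seeing the data.

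The 50 genes, the other lists and the tests were chosen with earlier results of these data known. Given in every library were members past the threshold, members past it with the block alone and among the 8 largest absolute log2 fold changes, and 1 or 2 per role with the highest CPM. NDC80, MKI67, FOXM1 and SPC25 were added after their values were seen. In the other lists, the 2 genes of smallest p in each were named. Replicate numbers follow the order of the accessions.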

Additional observations from a re-analysis of the deposited data

How the results depend on the processing

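The number of the 50 genes called higher was 1 in edgeR, in DESeq2, with DESeq2's size factors and with the stricter filter, and between 0 and 1 without any 1 library. It was 4 with no filter (AURKB, CENPF, CENPI and HMMR), 15 with the replicate block, 0 with the neighbour offset, 16 with both, 0 without both replicates 1 and 0 without both replicates 2. The number lower was 0, but 1 in DESeq2 and 1 with no filter (NUF2 in each) and 5 with the block. The median log2 fold change lay between 0.00 and 0.14 without any 1 library and was 0.12 with the offset. NUSAP1 and PRC1 reversed, at 0.21 and 0.19 with the block and offset together, against -0.04 and -0.15 without. In all, 14 members had the other sign with the offset, none of them called there. With block and offset together 11 of these 14 had the other sign without a call, among them NDC80, KIF23 and CKAP2L, called lower with the block alone. Without any 1 library, between 2 and 11 members had the other sign. The cause was not tested. Of the 159 other genes, 2 were higher and 1 was lower. These were 6 and 2 in DESeq2, 7 and 1 with no filter, 26 and 12 with the block, 0 and 1 with the offset, 23 and 5 with both, 0 and 1 without both replicates 1, and 0 and 0 without both replicates 2. Without any 1 library they lay between 0 and 1 higher, with 1 lower. With 3 libraries per group, the SE of the 49 members other than SPC25 lay between 0.07 and 0.15 on the log2 scale, which limits what differences could be detected. What neighbouring pairs share is not given by the labels.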
